A study of Mus musculus with 3 samples.

Results

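The collapsin response mediator proteins (CRMPs) are encoded in the mouse by 5 genes, *Crmp1*, *Dpysl2*, *Dpysl3*, *Dpysl4* and *Dpysl5*, and all 5 were present among the 14933 genes of the filtered scRNA-seq table. They were chosen by name as the complete family, with earlier results of these data known. The cells came from the medial prefrontal cortex (mPFC) of postnatal day 5 mice and were sorted for tdTomato, a Cre reporter that all 3 genotypes carry together with *Rbp4-cre*, a transgene that drives Cre in layer 5 pyramidal neurons. The wild-type library (Rbp4cre::tdTomato) has both *Tbr1* alleles, the *Tbr1* layer5 heterozygous library (Tbr1f/+::Rbp4cre::tdTomato) has 1 floxed allele, and the *Tbr1* layer5 homozygous library (Tbr1f/f::Rbp4cre::tdTomato) has both alleles floxed. There was 1 library per genotype, and how many animals went into each was not given in the sources used here. No test between genotypes was therefore made, and every interval below is a 95% interval of counting error alone. Where 3 values follow each other, they belong to wild-type, then heterozygous, then homozygous cells.

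CRMPs are cytosolic phosphoproteins that take their name from the collapse of growth cones by semaphorin 3A, a repulsive guidance cue that acts through neuropilin and plexin receptors. They bind tubulin or actin in growing axons and dendrites, and phosphorylation by kinases such as CDK5 and GSK3β weakens that binding. The family resembles dihydropyrimidinase, the enzyme that gave the *Dpysl* genes their name, but lacks its activity. *Dpysl2* encodes CRMP2, which promotes microtubule assembly and axon outgrowth. *Crmp1* encodes CRMP1, a mediator of semaphorin signaling. *Dpysl3* encodes CRMP4, which bundles actin filaments, and *Dpysl4* encodes CRMP3. *Dpysl5* encodes CRMP5, the most divergent member, which counteracts the outgrowth that CRMP2 promotes.

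In GRCm38 coordinates, *Crmp1* (ENSMUSG00000029121) lies on chromosome 5 at 37241940 to 37292133 on the plus strand and *Dpysl5* (ENSMUSG00000029168) on the same chromosome at 30711564 to 30799375, also on the plus strand. The promoters of *Dpysl5* and *Crmp1* are printed, as *Tbr1*, the floxed gene, encodes a T-box transcription factor. *Dpysl5* was lower and *Crmp1* higher than wild-type in both mutant libraries. *Dpysl3* was also lower in both, but its promoter is not printed, and the motif and GC values of members below leave it out. Each printed promoter runs from 250 bases before to 50 bases from the start on, credited to RefSeq with build GRCm38.p6, and the capital marks the start base. *Dpysl5* is at chr5:30711314-30711613 on the plus strand, and *Crmp1*, at the farther upstream of its 2 starts, at chr5:37241808-37242107 on the plus strand.
Dpysl5: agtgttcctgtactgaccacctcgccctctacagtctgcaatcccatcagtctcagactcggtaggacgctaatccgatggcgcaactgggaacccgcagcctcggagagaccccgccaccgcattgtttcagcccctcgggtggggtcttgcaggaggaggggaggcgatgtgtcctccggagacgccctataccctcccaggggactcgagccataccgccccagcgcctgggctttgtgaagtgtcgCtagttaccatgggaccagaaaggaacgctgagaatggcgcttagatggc
Crmp1: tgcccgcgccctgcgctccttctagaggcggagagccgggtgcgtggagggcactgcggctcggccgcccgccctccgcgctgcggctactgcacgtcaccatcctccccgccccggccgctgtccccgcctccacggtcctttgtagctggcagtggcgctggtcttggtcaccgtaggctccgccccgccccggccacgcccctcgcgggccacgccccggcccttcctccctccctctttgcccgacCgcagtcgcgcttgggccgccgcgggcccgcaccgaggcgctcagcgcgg
The core T-box letters GGTGTGA, searched on both strands, occurred in 0 of these promoters and not in that of the second *Crmp1* start at chr5:37245514-37245813, whereas 3.98% of 32851 promoters of this length held them. No match says only that these letters are not in these windows. The GC content was 61% for *Dpysl5*, 77% for the upstream *Crmp1* start and 61% for the other, against a median of 52.7% over all promoters.

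Of the other members, *Dpysl2* (ENSMUSG00000022048) lies on chromosome 14 at 66802864 to 66868688 on the minus strand, *Dpysl3* (ENSMUSG00000024501) on chromosome 18 at 43320984 to 43438286 on the minus strand, and *Dpysl4* (ENSMUSG00000025478) on chromosome 7 at 139086001 to 139102704 on the plus strand. The 3′ ends of the members are distinct, as 0 of the 31-base words in the last 1000 bases of their transcripts occurred in a transcript of any other gene. The 3′ end of *Crmp1* overlaps *Evc* on the opposite strand.

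The filtered table held 17396 cells. The study took 3 clusters of them as neuronal and filtered these again by their UMIs and genes per cell. It kept the cells left that were not atypical for its differential expression, and these cells are called typical here. The wild-type library had 1778 typical cells, the heterozygous 5357 and the homozygous 3935, with a median of 1901, 1743 and 1375 unique molecular identifiers (UMIs) per cell. The median mitochondrial share was 10.4%, 15.4% and 12.5%, and 37 to 58 cell barcodes occurred in any pair of libraries. Other classes were the atypical neuronal cells (304, 107 and 462 cells), the filtered cells outside the neuronal table (2873, 1398 and 1182 cells, called outside cells), and barcodes of 100 UMIs or more but under 500, called low-count barcodes. How much of their RNA was free and how much came from damaged cells was not tested. *Tbr1* itself was at 27.5, 30.7 and 22.4 CPM (UMIs of the gene per 1000000 UMIs) in typical cells, and 3′ UMIs do not show the loss of the floxed exons. The 5 excitatory markers together stood at 309, 362 and 359 CPM in typical cells, above outside cells (115, 243 and 151 CPM) and low-count barcodes (185, 248 and 233 CPM). Of these markers, 4 of 5 were higher in typical than in outside cells in all 3 libraries and *Slc17a6* was lower, while all 8 inhibitory markers were lower. The radial glia marker *Fabp7* was high in typical cells, at 5713, 4775 and 5647 CPM, and equally in low-count barcodes, at 5755, 5114 and 5858 CPM. The astrocyte marker *Slc1a2* was higher in typical cells than in low-count barcodes, at 166, 191 and 182 CPM against 84.9, 115 and 94.8 CPM. It was lower than in outside cells, which were at 233, 291 and 199 CPM. *Aldoc*, another such marker, was higher in typical cells than in low-count barcodes in wild-type alone, at 602, 670 and 647 CPM against 568, 747 and 694 CPM. Of the 7 astrocyte and radial glia markers, 5 were lower in typical than in outside cells in all 3 libraries, *Slc1a2* among them. The other 2, *Fabp7* and *Aldoc*, were higher.

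*Dpysl2* was the most abundant member in typical cells and *Dpysl4* the least. UMIs count 3′ ends once per captured molecule, so no level was divided by transcript length. *Dpysl2*, the microtubule regulator, stood at 955 CPM (924 to 988) in wild-type, 921 CPM (902.5 to 940) in heterozygous and 1092 CPM (1066 to 1119) in homozygous cells. *Dpysl3*, the actin bundler, was at 348 CPM (330 to 368), 305 CPM (294 to 316) and 316 CPM (302 to 330). *Crmp1* was at 279.8 CPM (263 to 297), 317 CPM (306 to 328) and 333 CPM (318 to 347). The order of *Dpysl3* and *Crmp1* thus differed between libraries: *Dpysl3* was the higher in wild-type cells, whereas their intervals overlapped in both mutant libraries. *Dpysl5*, the divergent member, came next with 107 CPM (96.7 to 118), 76.8 CPM (71.6 to 82.3) and 82.3 CPM (75.2 to 89.85). *Dpysl4* was near the limit of what can be compared, at 21.0, 21.4 and 22.4 CPM from 77, 223 and 136 UMIs. The family as a whole gave 1712, 1641 and 1846 CPM.

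**Figure D1:**
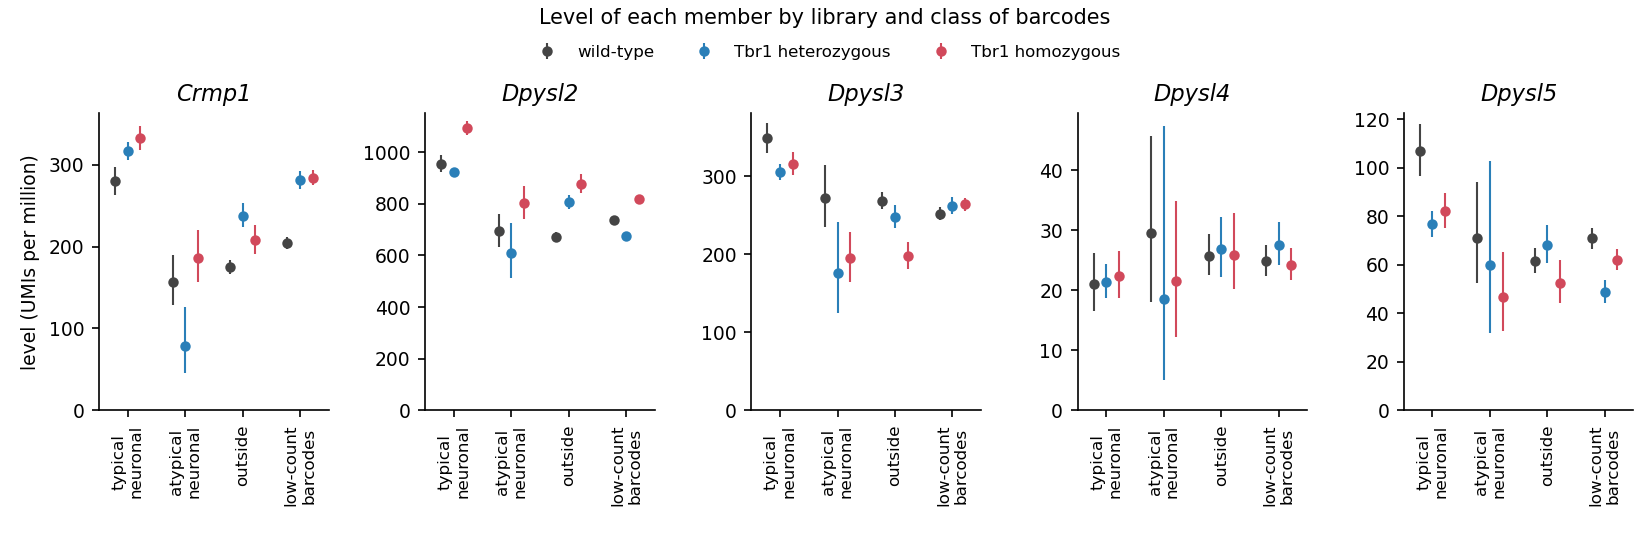
Level of each CRMP gene in CPM (vertical axis, starting at 0 and scaled separately for each gene) in typical neuronal cells, atypical neuronal cells, outside cells and low-count barcodes of the 3 libraries. Points are library sums and bars are exact Poisson 95% intervals of counting error. *Dpysl2*, *Crmp1*, *Dpysl3* and *Dpysl5* were above the low-count barcodes in typical cells of every library, whereas *Dpysl4* was not.

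A CRMP transcript was seen in most typical cells. At least 1 UMI of any member was found in 93.6% of wild-type, 90.9% of heterozygous and 88.7% of homozygous cells. Because the homozygous library was the shallowest per cell, the mean share that thinning every cell to 1000 UMIs would leave was computed too, with 0 cells left out, and it was 78.8%, 77.4% and 80.6%. *Dpysl2* was seen in 77.6%, 73.6% and 72.0% of cells, or 56.6%, 55.3% and 60.5% after thinning. Shares for *Dpysl3* were 49.8%, 43.2% and 37.2% (thinned 28.8%, 26.0% and 26.8%), and for *Crmp1* 42.6%, 43.1% and 38.2% (thinned 23.9%, 26.5% and 27.4%). The order of the genotypes for these 3 members and for the family therefore differed between thinned and unthinned shares, and the thinned order is that of the CPM. *Dpysl5* was seen in 19.5%, 13.5% and 11.7% of cells (thinned 9.99%, 7.03% and 7.50%), and its order likewise changed to that of the CPM. *Dpysl4* was seen in 4.27%, 4.03% and 3.43% (thinned 2.15%, 2.04% and 2.29%), close to the level of single UMIs. Its order changed too, but not to that of the CPM. For comparison, in 409 outside cells with endothelial markers, at a median of 2814 UMIs, the thinned share was 5.34% for *Crmp1*, 26.4% for *Dpysl2*, 6.92% for *Dpysl3*, 1.66% for *Dpysl4* and 1.32% for *Dpysl5*. The *Dpysl4* share in typical cells was thus near that in endothelial-marker cells, and no expression is read from it.

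The variance of *Dpysl2* over typical cells was 1.55, 1.59 and 1.51 times that of Poisson counts with the UMIs of each cell, and the richest cell held 14, 15 and 10 of its UMIs. The other members lay between 0.978 and 1.11 times. This ratio grows with the level of a gene at the same relative spread, so the members were not ranked by it. Most often 2 of the 5 members were seen in the same cell (37.9%, 37.5% and 36.1% of cells), and all 5 were seen in only 2, 11 and 6 cells. Typical cells with a UMI of the excitatory list (796, 2489 and 1563 cells) were compared with those without. The cells with such a UMI were deeper, with a median of 1998, 1939 and 1474 UMIs against 1828.5, 1631 and 1321.5. Their log2 ratio was 0.03, 0.18 and 0.16 for *Crmp1*, with an interval above 0 in both mutant libraries, and −0.03, 0.00 and 0.03 for *Dpysl2*, with intervals that all included 0. It was 0.16, 0.10 and 0.14 for *Dpysl3* and 0.16, 0.13 and 0.26 for *Dpysl5*, with an interval above 0 in homozygous cells for each. Typical cells with a UMI of the astrocyte list, shortened as described with the marker groups, had less *Crmp1* than those without, with ratios of −0.25 (−0.43 to −0.06), −0.11 (−0.21 to −0.01) and −0.16 (−0.29 to −0.03). *Dpysl3* gave −0.18, −0.0095 and −0.20 in this split, with an interval that included 0 in heterozygous cells alone. *Dpysl2* gave 0.02, −0.05 and 0.098, with an interval above 0 in homozygous cells alone, and all intervals of *Dpysl4* and *Dpysl5* included 0. Cells with an astrocyte-list UMI were also deeper, with a median of 1975.5, 1896 and 1491 UMIs against 1806, 1605.5 and 1301. The part of depth in the ratios of both splits was not tested.

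Low-count barcodes carried the same transcripts. *Dpysl2* stood at 736, 674 and 819 CPM in low-count barcodes. *Dpysl3* stood there at 252, 262 and 264 CPM and *Crmp1* at 204, 281 and 284 CPM. *Dpysl5* stood at 70.9, 49.0 and 62.2 CPM and *Dpysl4* at 24.8, 27.6 and 24.3 CPM. All members but *Dpysl4* were higher in typical cells in every library, with intervals above 0. Against barcodes of 50 to 99 UMIs instead, *Dpysl2* in wild-type cells was at −0.40 (−0.76 to −0.02) on the log2 scale, from 64 UMIs in those barcodes, and *Dpysl3* in homozygous cells at 0.093 (−0.29 to 0.50). The intervals also included 0 for *Crmp1* in wild-type cells, at 0.36 (−0.48 to 1.37), and for *Dpysl5* in wild-type cells, at 0.44 (−0.93 to 2.32), and homozygous cells, at 0.15 (−0.61 to 1.03). Other ratios were larger against those barcodes, among them *Dpysl3* in wild-type (1.14) and heterozygous (0.64) cells and *Crmp1* in homozygous cells (0.69). The log2 ratio of typical cells over low-count barcodes was 0.38 (0.32 to 0.43), 0.45 (0.40 to 0.50) and 0.42 (0.37 to 0.46) for *Dpysl2*. It was 0.59, 0.65 and 0.40 for *Dpysl5*, the largest of any member in the wild-type and heterozygous libraries. For *Crmp1* it was 0.45, 0.17 and 0.23, and for *Dpysl3* 0.47, 0.22 and 0.26. *Dpysl4* gave −0.24, −0.37 and −0.12, with an interval below 0 in the heterozygous library (−0.64 to −0.10) and including 0 in the others. Of the 5 members, 4, 2 and 2 were higher in typical cells by a log2 ratio of 0.32 or more, where 19.8%, 9.95% and 13.3% of the 4260 genes that averaged 20 CPM or more were. The median over members was 0.45, 0.22 and 0.26 on the log2 scale, against 0.07, 0.00 and 0.03 over all those genes. Without mitochondrial and ribosomal protein genes in the denominator, *Dpysl2* in wild-type cells fell just short of that size. Its log2 ratio was then 0.3204, where 0.32 stands for 0.3219.

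Outside cells had less of 4 members. *Crmp1* was at 175, 238 and 208 CPM there, *Dpysl2* at 672, 806 and 877.5 CPM, and *Dpysl3* at 269, 248 and 198 CPM. *Dpysl5* was at 61.6, 68.3 and 52.6 CPM and *Dpysl4* at 25.8, 26.9 and 25.9 CPM. On the log2 scale, typical cells exceeded outside cells by 0.68, 0.41 and 0.68 for *Crmp1*, 0.51, 0.19 and 0.32 for *Dpysl2* and 0.38, 0.30 and 0.68 for *Dpysl3*. For *Dpysl5* the ratio was 0.80 (0.60 to 0.99) in wild-type and 0.65 (0.37 to 0.93) in homozygous cells, but 0.17 (−0.03 to 0.37) in the heterozygous library. *Dpysl4* gave −0.30, −0.33 and −0.21, with intervals that all included 0. None of the 5 members was 2-fold higher in typical cells, where 6.15%, 0.0469% and 1.95% of genes were. Without mitochondrial and ribosomal protein genes in the denominator, *Dpysl5* in wild-type cells passed that size, with a log2 ratio of 1.01.

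Between genotypes, *Dpysl5* was lower and *Crmp1* higher in typical cells of both mutant libraries. From the 107, 76.8 and 82.3 CPM given above, the log2 ratio of *Dpysl5* over wild-type was −0.48 (−0.66 to −0.30) in heterozygous cells. In homozygous cells it was −0.38 (−0.57 to −0.19). It was the one member of 5 whose ratio passed a size of 0.32 in either comparison. In homozygous cells 3 members were lower by that size in mean raw UMIs per cell, and 0 were when only cells with an excitatory-list UMI were kept, a choice made after the data were seen. Of the 4261 genes that averaged 20 CPM or more, 9.5% were lower by that size in heterozygous and 8.5% in homozygous cells, so that 1 of 5 members is close to the background. *Crmp1* was higher by 0.18 (0.08 to 0.28) and 0.25 (0.14 to 0.36). After subtraction of the low-count profile these ratios were 0.096 and 0.18. Without that subtraction, the homozygous ratio became −0.17 in mean raw UMIs per cell, a measure that keeps the smaller depth of the homozygous cells. None of the members was higher by 0.32 or more, where 17.1% and 17.2% of all genes were. In raw UMIs per cell the shares of genes higher and lower by that size were 10.4% and 15.2% for heterozygous cells. For homozygous cells they were 1.01% and 52.4%, and the median of all genes moved to −0.34.

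*Dpysl3* was lower in both mutant libraries. Its log2 ratio was −0.19 (−0.29 to −0.10) in the first and −0.14 (−0.24 to −0.04) in the second comparison. *Dpysl2* gave different values in the mutant libraries. Its ratio was −0.05 (−0.11 to 0.00) in heterozygous cells. In homozygous cells it was 0.19 (0.13 to 0.25), or −0.23 in mean raw UMIs per cell. The homozygous over heterozygous ratio of *Dpysl2* was 0.25 (0.20 to 0.29), while the intervals of the other 4 members included 0 in that comparison. *Dpysl4* was at 0.03 (−0.35 to 0.42) and 0.09 (−0.32 to 0.52), which its few UMIs cannot tell from no difference or from one of 0.32. The family sum was −0.06 (−0.10 to −0.02) and 0.11 (0.06 to 0.15), the latter −0.31 in mean raw UMIs per cell. The median over members was −0.05 and 0.09, against 0.06 and 0.08 over all genes, whose SD was 0.36 and 0.31.

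The same ratios in low-count barcodes and outside cells moved with those of typical cells for some members and apart from them for others. For *Crmp1*, low-count barcodes gave 0.46 (0.38 to 0.54) and 0.47 (0.41 to 0.54), larger than in typical cells, and outside cells 0.44 (0.33 to 0.56) and 0.25 (0.11 to 0.39). The higher *Crmp1* of the mutant libraries was thus present in all 3 of these classes, but not in every group of cells. In heterozygous against wild-type cells, *Crmp1* was at 78.6 against 157 CPM in atypical cells. It was at 311 against 583 CPM in outside cells with excitatory markers. In outside cells with inhibitory markers it was at 425 against 312 CPM, and homozygous atypical cells were at 187 CPM. For *Dpysl5*, low-count barcodes gave −0.53 (−0.70 to −0.37) and −0.19 (−0.32 to −0.06), and outside cells 0.15 (−0.06 to 0.36) and −0.23 (−0.51 to 0.04). The lower *Dpysl5* level of both mutant libraries was therefore also present in their low-count barcodes, with the smaller difference in the homozygous library. After subtraction of the low-count profile, the ratios of *Dpysl5* in typical cells were −0.54 and −0.44. For *Dpysl3*, low-count barcodes gave 0.06 and 0.07, of the other sign than typical cells, and outside cells −0.12 and −0.44. For *Dpysl2*, low-count barcodes gave −0.13 (−0.17 to −0.08) and 0.15 (0.12 to 0.19), near the typical cells, whereas outside cells gave 0.26 (0.20 to 0.32) and 0.38 (0.31 to 0.45).

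**Figure D2:**
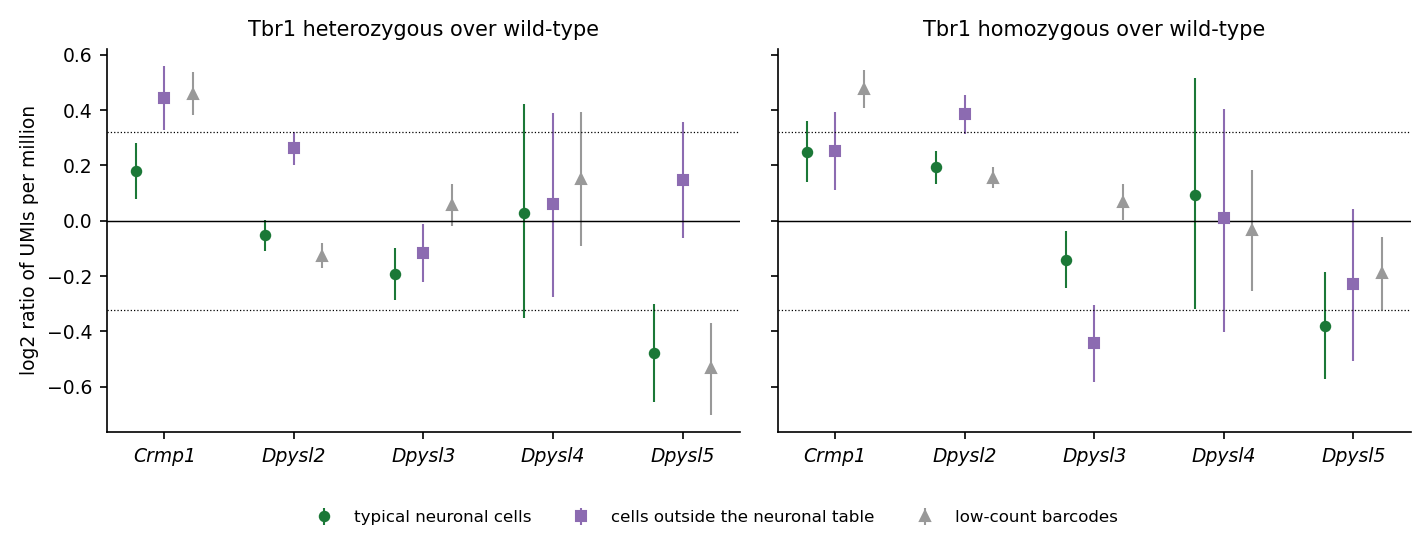
Log2 ratio of the CPM of each CRMP gene, heterozygous over wild-type on the left and homozygous over wild-type on the right, in typical cells, outside cells and low-count barcodes. Bars are 95% intervals of counting error and dotted lines mark ratios of −0.32 and 0.32. *Dpysl5* in typical cells lies below the lower dotted line in both panels, at −0.48 and −0.38, and its low-count value lies near it in the heterozygous library.

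The make-up of the family does not depend on the total UMIs of the cells, and *Dpysl2* gave most of it in every library. It gave 55.8% (54.6 to 57.0) of the family's UMIs in wild-type, 56.1% (55.4 to 56.9) in heterozygous and 59.2% (58.3 to 60.1) in homozygous typical cells. *Dpysl5* made up 6.25% (5.67 to 6.88), 4.68% (4.37 to 5.01) and 4.46% (4.09 to 4.86). The share of *Dpysl5* was thus lower in both mutant libraries, and its intervals did not reach that of wild-type. *Crmp1* made up 16.3%, 19.3% and 18.0%, *Dpysl3* 20.4%, 18.6% and 17.1%, and *Dpysl4* 1.23%, 1.30% and 1.21%. The share of *Crmp1* was higher and that of *Dpysl3* lower in both mutant libraries, also without overlap of the intervals with wild-type. In low-count barcodes *Dpysl2* made up 57.1%, 52.1% and 56.4% of the family and *Dpysl3* 19.5%, 20.2% and 18.1%. *Crmp1* made up 15.9%, 21.7% and 19.5% there, and *Dpysl5* 5.51%, 3.79% and 4.28%. The shares of *Crmp1* and *Dpysl5* thus differed between genotypes in the same direction in low-count barcodes as in typical cells, and the part of these barcodes in the shares was not tested.

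**Figure D3:**
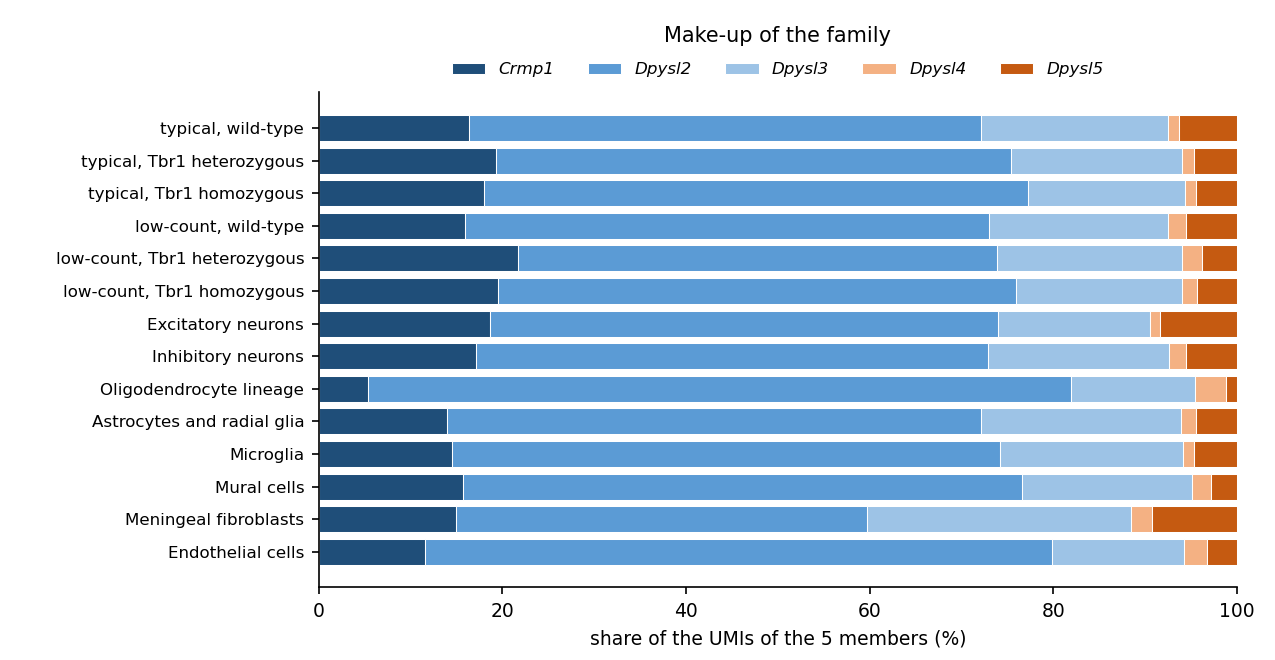
Share of each CRMP gene among the UMIs of the 5 genes (horizontal axis, percent) in typical cells and low-count barcodes of each library and in marker groups of outside cells summed over the 3 libraries. *Dpysl2* is the largest share in every bar, and reaches 76.6% in cells with oligodendrocyte-lineage markers.

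Outside cells were grouped by marker UMIs, with at least 3 UMIs over at least 2 genes of a list and at least 2 times those of any other list. The lists leave out *Fabp7* and 6 other genes that exceeded 200 CPM in low-count barcodes, a choice made after the data were seen because 8794 typical cells had fallen in the astrocyte group. With the shorter lists, 9913 typical cells had no group, 924 fell with astrocytes and 210 with excitatory neurons. These groups are ranges of a count and were not named as cell types. Summed over the libraries, neuronal marker groups had the highest *Crmp1*, *Dpysl3* and *Dpysl5*. In 75 outside cells with excitatory markers, *Crmp1* stood at 476 CPM (401 to 561), *Dpysl3* at 423 CPM (353 to 503) and *Dpysl5* at 213 CPM (164 to 272). *Dpysl2* in these cells was at 1412 CPM (1281 to 1553). Of these cells, 32 were wild-type, 34 heterozygous and 9 homozygous. They had a median of 4124 UMIs, and whether the second filter of the study had removed them was not tested. In the wild-type and then the heterozygous cells, *Dpysl2* was at 1503 and 1177 CPM, *Crmp1* at 583 and 311 CPM, *Dpysl3* at 532 and 318 CPM and *Dpysl5* at 287 and 156 CPM. The heterozygous values of *Crmp1* and *Dpysl3* were thus close to the 317 and 305 CPM of typical cells in that library.

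In inhibitory-marker cells the value of each member was above that of typical cells in every library, though not always beyond its interval. How many of all genes were above typical cells here was not counted, so no trait of the family is read from it. The median mitochondrial share of all outside cells was 4.45%, 13.0% and 7.95%, and its part in these ratios was not tested. In 592 wild-type, 124 heterozygous and 114 homozygous cells, *Dpysl2* was at 1010, 1315 and 1556 CPM and *Crmp1* at 312, 425 and 452 CPM. *Dpysl4* was at 35.5, 46.4 and 48.0 CPM, above typical cells in each library by 0.76 (0.24 to 1.27), 1.12 (0.36 to 1.79) and 1.10 (0.28 to 1.83) on the log2 scale. *Dpysl4* was thus the member that stood furthest above typical cells in this group, from 58, 19 and 17 UMIs. Over low-count barcodes its log2 ratio was 0.52, 0.75 (−0.0075 to 1.43) and 0.99. That was the largest of any member in the homozygous library alone. *Dpysl3* had 0.80 in wild-type and *Dpysl5* 1.17 in heterozygous cells. *Dpysl3* was at 438, 320 and 347 CPM and *Dpysl5* at 118, 110 and 96.0 CPM. The log2 ratio of *Dpysl2* over typical cells was 0.51 in both mutant libraries and 0.08 (0.00 to 0.17) in wild-type.

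Summed over the libraries, astrocyte-, microglia- and endothelial-marker cells had less. The libraries differed within groups, as *Dpysl2* was at 514, 712 and 628 CPM in astrocyte- and 365, 630 and 688 CPM in microglia-marker cells. In 1102 astrocyte-marker cells, *Dpysl2* was at 589 CPM, *Crmp1* at 142 CPM and *Dpysl3* at 221 CPM. In 565 microglia-marker cells the same genes were at 512.5 CPM, 125 CPM and 172 CPM. In 409 endothelial-marker cells they were at 300.2 CPM, 51.1 CPM and 63.3 CPM, and *Dpysl5* at 14.4 CPM. Endothelial-marker cells lay below the low-count barcodes of their own library for all 5 members in all 3 libraries. The intervals included 0 for *Dpysl4* in both mutant libraries and for no other member. The smallest such difference of *Dpysl2* was a log2 ratio of −1.24, in the heterozygous library. The share of all genes that lay below these barcodes was not computed, so the count is not read as particular to the family. In 62 cells with blood markers *Dpysl4* had 0 UMIs, which allows up to 11.2 CPM when 0 is read as at most 3 UMIs, and *Dpysl5* had 2.

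**Figure D4:**
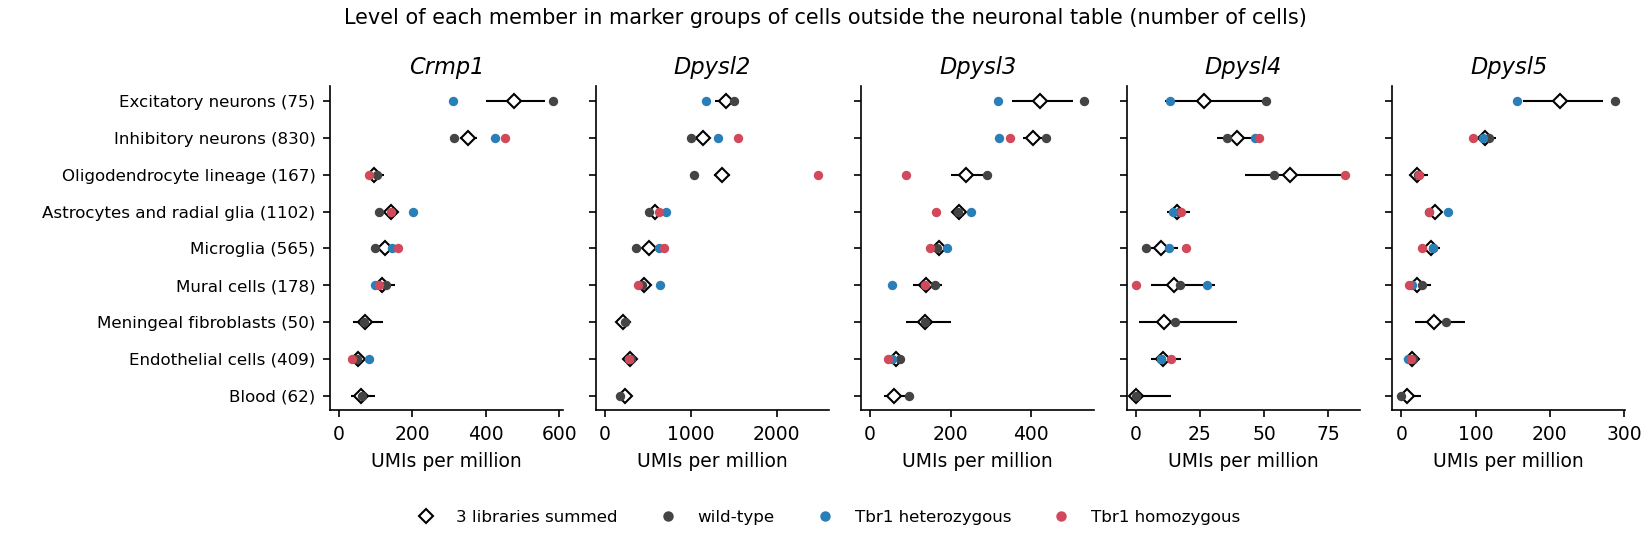
Level of each CRMP gene in CPM (horizontal axes, linear and starting at 0) in marker groups of outside cells, with the number of cells in brackets. Open diamonds are sums over the 3 libraries with exact Poisson 95% intervals, and filled points are single libraries with at least 20 cells in the group. *Dpysl2* and *Dpysl4* are high in cells with oligodendrocyte-lineage markers, where *Crmp1* and *Dpysl5* are low.

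Cells with oligodendrocyte-lineage markers had the largest share of *Dpysl2* and the smallest of *Crmp1* among the groups drawn. In these 167 cells *Dpysl2* gave 76.6% (73.9 to 79.04) of the family's 1092 UMIs, *Crmp1* 5.40% and *Dpysl5* 1.19%. In wild-type cells *Crmp1* had 46 and *Dpysl5* 10 of 674 UMIs, and in homozygous cells they had 10 and 3 of 339. By library, *Dpysl2* gave 68.8% (65.2 to 72.3) in 124 wild-type, 84.8% (74.97 to 91.9) in 9 heterozygous and 89.97% (86.3 to 93.0) in 34 homozygous cells. In endothelial-marker cells it gave 67.3% (62.3 to 72.0), 64.8% (54.1 to 74.6) and 72.9% (64.9 to 79.98), so that the intervals of the 2 groups overlapped in wild-type and not in mutant cells. *Dpysl2* was at 1040 CPM in 124 wild-type and 2488 CPM in 34 homozygous cells, above the low-count barcodes of the same library by 0.50 (0.36 to 0.63) and 1.60 (1.43 to 1.77) on the log2 scale. *Dpysl4* was at 53.8 and 81.6 CPM, above them by 1.12 (0.45 to 1.71) and 1.75 (0.68 to 2.65), from 24 and 10 UMIs. *Crmp1*, at 103 and 81.6 CPM, lay below them, with ratios of −0.99 and −1.80.

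Atypical neuronal cells, which the study set apart for reduced excitatory markers in a clustering of these same cells, had less of the family. *Dpysl2* was at 695, 610.4 and 803 CPM and *Crmp1* at 157, 78.6 and 187 CPM. *Crmp1* showed the largest difference from typical cells, with a log2 ratio of −0.84, −2.01 and −0.83, the heterozygous value resting on 17 UMIs in 107 cells. For *Dpysl2* the ratio was −0.46, −0.59 and −0.44 and for *Dpysl3* −0.36, −0.80 and −0.70. *Dpysl5* gave −0.59 and −0.81 in the wild-type and homozygous libraries and −0.35 (−1.27 to 0.43) in the heterozygous library. All 3 intervals of *Dpysl4* included 0. The log2 ratio of the family sum was −0.48, −0.80 and −0.56.

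A list of 47 genes covered semaphorin signaling, the kinases, phosphatases, proteases and binding partners of the CRMPs, and the related enzyme dihydropyrimidinase. Of the listed genes, 24 averaged 20 CPM or more in typical cells. Of these 24, 5 were higher by a log2 ratio of 0.32 or more in each mutant library and 1 was lower by that size in each, against the same 17.1%, 17.2%, 9.5% and 8.5% of all genes. The genes listed for semaphorin signaling were mostly too low, with 1 of 15 at that level, which is neither a receptor nor a ligand. That gene, *Chn1*, which encodes the Rac regulator α-chimaerin, was at 55.3, 87.1 and 88.1 CPM, with log2 ratios of 0.65 and 0.67. Among 8 measured kinase genes, *Cdk5r2*, an activator of CDK5, was at 107.9, 144.8 and 148.2 CPM, with ratios of 0.43 and 0.46. A further 2 kinase genes, named after their values were seen, passed 0.32 in the homozygous library alone. *Gsk3b* was at 204, 247 and 264 CPM, with ratios of 0.28 and 0.37, and *Camk2a*, the α subunit of a calcium-dependent kinase, at 96.99, 106 and 125 CPM, with 0.13 and 0.37. *Chn1* and *Cdk5r2* were also higher in the mutant low-count barcodes, *Chn1* at 43.7, 66.0 and 73.4 CPM and *Cdk5r2* at 74.9, 109 and 112 CPM. *Gsk3b* stood in these barcodes at 163, 193 and 188 CPM and *Camk2a* at 61.9, 63.3 and 83.6 CPM. Of 11 measured binding partners, *Dync1h1*, the heavy chain of the dynein motor, was the one past that size, lower at 54.8, 37.6 and 43.6 CPM, with ratios of −0.54 and −0.33. The median of the 24 was 0.17 and 0.14, against 0.06 and 0.08 over all genes.

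The pattern of each member over 27 values, which are the typical, atypical and marker groups of each library with at least 20 cells, was compared with that of genes averaging 50 CPM or more. Pearson's r of log2(CPM + 1) is given as a description, since these values share libraries and depth. *Crmp1* was most like *Tubb3* (0.951), *Tubb2a* (0.949) and *Stmn3* (0.935), of which the first 2 encode β-tubulins. *Dpysl2* was most like *Tuba1a* (0.947), an α-tubulin gene, *Marcksl1* (0.917) and *Apbb1* (0.915). *Dpysl3* was most like *Basp1* (0.956), *Mapt* (0.930), which encodes tau, and *Celf4* (0.918). *Dpysl5* was most like *Ndrg3* (0.876), *Stub1* (0.854) and *Aes* (0.852), and *Dpysl4* most like *Txnl4a* (0.856), *Psmb6* (0.837) and *Sssca1* (0.824). Among the members, *Crmp1* and *Dpysl3* were most alike (0.855) and *Dpysl3* and *Dpysl4* least (0.368). Values of *Dpysl4* rest on few UMIs, with 0 in wild-type blood-marker and homozygous mural-marker cells and 3 in wild-type microglia-marker cells. *Dpysl5* also had 0 in wild-type blood-marker cells. How far counting error shaped the r of *Dpysl4* and *Dpysl5* was not tested.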

How the data were processed

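scRNA-seq was made from FACS-sorted tdTomato-positive mPFC cells at P5 on the 10X Chromium platform (3′ kit, v2). The authors processed reads with Cell Ranger 2.0.1 on mm10 and deposited raw UMI counts per gene, without normalization, for all barcodes of each library and for filtered cells (at most 30% mitochondrial UMIs, 500 to 10000 UMIs and 500 to 3000 genes). The mitochondrial share per cell was deposited as a fraction, although its header says percent. A table of log values named raw and a scaled table, both made by the authors, were not used.

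Cells were taken as typical, atypical or outside from the list of neuronal cells deposited by the authors. Raw UMIs were summed per library and class, and CPM is that sum over the total of the same cells. Typical cells summed to 3670646, 10418228 and 6074494 UMIs in wild-type, heterozygous and homozygous. Sums have exact Poisson, shares exact Clopper-Pearson and ratios conditional binomial 95% intervals, which cover counting error only. The study tested cells with MAST, and this was not repeated because cells of 1 library are not replicates. No doublet caller was run, and leaving out the richest 5% of cells by UMIs stood in for one. A count of 0 was read as at most 3 UMIs. The scripts were tested on simulated data.

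The members, the marker lists, the pathway list and the sizes counted as a difference (log2 ratios of 0.32 and 1) were chosen with earlier results of these data known. All members are named, up to 5 pathway genes in each direction past 0.32 in both mutant libraries, and the 3 genes most like each member, except that 1 gene the rule names is not reported here. Positions are from GENCODE on GRCm38 and promoters from the RefSeq table, which held *Crmp1*, *Dpysl3* and *Dpysl5*, with *Dpysl3* not printed. *Dpysl2* and *Dpysl4* had no entry. Alternatives were a denominator without mitochondrial and ribosomal protein genes, TMM factors of edgeR 4.0.16, size factors of DESeq2 1.42.0, raw UMIs per cell, equal weight per cell, other sets of cells, subtraction of the low-count profile and low-count barcodes of 50 to 99 UMIs. R 4.3.3 and Python 3.11.15 with NumPy 2.4.6, SciPy 1.17.1 and pandas 2.3.3 were used.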

Additional observations from a re-analysis of the deposited data

Results flagged for a closer look

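In the heterozygous over wild-type comparison, 2 members and the family sum had opposite signs in typical and outside cells, with intervals of counting error that did not overlap. The log2 ratio of *Dpysl2* was −0.053 (−0.109 to 0.003) in typical and 0.26 (0.20 to 0.32) in outside cells. That of *Dpysl5* was −0.48 (−0.66 to −0.30) in typical and 0.15 (−0.06 to 0.36) in outside cells. The intervals of *Dpysl2* in typical and of *Dpysl5* in outside cells thus included 0, so these signs are not fixed. The family sum was −0.061 in typical and 0.20 in outside cells. How many of all genes meet the same rule was not counted, so it does not set these members apart. With 1 library per genotype these differences were not tested. Outside cells held 592 inhibitory-marker cells of 2873 in the wild-type and 124 of 1398 in the heterozygous library, and the part of this make-up in the ratios was not tested.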

How the results depend on the processing

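Of 120 genotype ratios of members and family under the alternatives, 109 moved by less than their counting interval and kept their sign where they had one. Mean raw UMIs per cell, which keeps the lower depth of homozygous cells, reversed the homozygous over wild-type ratio of *Crmp1* (−0.17), *Dpysl2* (−0.23) and the family (−0.31), and moved *Dpysl3* to −0.56, *Dpysl4* to −0.33 and *Dpysl5* to −0.80, with 3 members then lower by 0.32 or more. It moved the heterozygous ratio of *Dpysl2* to −0.14 and of the family to −0.15. The family ratio moved to −0.0083 (heterozygous) with atypical cells included, to −0.12 (heterozygous) after subtraction of the low-count profile, and to 0.054 (homozygous) without mitochondrial and ribosomal protein genes in the denominator. The subtraction removed 21.9%, 11.9% and 16.2% of UMIs, the largest share that the mural list allows. *Dpysl5* ranged from −0.61 to −0.41 (heterozygous) and from −0.80 to −0.32 (homozygous), and with excitatory-list cells alone, an alternative added after the data were seen, it stayed just short of 0.32 in the homozygous library, leaving 0 members lower by that size. Against barcodes of 50 to 99 UMIs, *Dpysl2* in wild-type typical cells reversed to −0.40, from 64 UMIs of 50597 in those barcodes, and *Dpysl4* gave no value there for lack of a UMI. Of the other ratios against these barcodes, 9 moved beyond their counting interval, some up and some down, and 4 did not. Of 30 ratios of typical over outside cells, 14 moved beyond their counting interval and 0 reversed. The causes were not tested.

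Removal of typical cells with 2 or more UMIs of the other lists was not run with the lists as first written, which removes all 1778 wild-type cells. It was run with the shorter lists, added after the data were seen. The marker groups of outside cells also depend on the lists. With the first lists, 100 cells had oligodendrocyte-lineage markers, and *Dpysl2* had 799 of the family's 944 UMIs there. It was at 1932 CPM against 1361 CPM with the shorter lists, *Dpysl3* at 157 against 239 CPM and *Crmp1* at 96.7 against 96.0 CPM. The astrocyte group then held 2524 cells, with *Crmp1* at 208 against 142 CPM. With 1 library per genotype, leaving out a replicate does not apply. No paired analysis was possible because each genotype has 1 library. Depth limits *Dpysl4* most, with 77 UMIs in wild-type typical cells.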
